A study of Homo sapiens with 6 samples.

Results

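Genes of the lysosome and of autophagy were examined in RKO cells, a colorectal carcinoma line, with and without overexpression of the long noncoding RNA LOC101927668. The set held 39 genes out of 58735 in the expression table, chosen by name for their place in the pathway. They were found by their GENCODE symbols, and the rule did not use their measured values. Earlier results of these data were, however, known when they were chosen. All 39 passed the filter on low values, 0.5 FPKM in any 3 or more libraries, and so were tested, among 16061 genes tested in all. The comparison addressed which transcripts differ when LOC101927668 is raised, and it rested on 3 control libraries (Vector) and 3 from LOC101927668-overexpressing cells (LOC_OE). Both groups were stable RKO lines selected with puromycin, LOC_OE carrying the full-length transcript in the plenti6 plasmid and Vector serving as the vector control. Whether each line grew from 1 clone or from a pool is not given in the sources used here. The replicates are called biological, but no separate cultures are described, so p-values measure the spread between these libraries.

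Lysosomes are acidic organelles in which proteins, sugar chains and lipids are broken down by hydrolases that work at low pH. A proton pump, the V-ATPase, acidifies the lumen, and heavily glycosylated membrane proteins such as LAMP1 and LAMP2 line the inner face. Autophagy delivers cytoplasm to the lysosome: ULK1 and the BECN1 complex start a membrane, the ATG proteins attach LC3 and GABARAP proteins to it, receptors such as SQSTM1 load cargo, and the closed vesicle fuses with the lysosome. The factors TFEB and TFE3 switch on many of these genes through a DNA element that contains the E-box core CACGTG.

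LOC101927668 itself (ENSG00000243004, GRCh38 chromosome 7, 19918981 to 20140453, minus strand) was read 1, 1 and 0 times in the Vector libraries and 231, 270 and 276 times in the LOC_OE libraries, which matched the labels. Its LOC_OE level was 6.51 ± 0.851 FPKM (SD, n = 3), at least 103-fold above the level of 3 reads in a library. Between 15008842 and 18410231 reads per library lay on genes. LOC_OE replicate 1 stood apart: its Pearson correlation over genes with the other LOC_OE libraries was 0.962 and 0.967, against 0.982 to 0.983 for the Vector pairs and for LOC_OE replicates 2 and 3. Of the epithelial markers, EPCAM (4.76 to 7.49 FPKM), KRT8, KRT18 and CDX2 were present in every library, while KRT19, CDH1, VIL1 and KRT20 did not exceed 0.262 FPKM. KRT18 was at 67.5 FPKM in LOC_OE replicate 1 and at 18.1 to 25.3 FPKM in the other libraries. Markers of immune, stromal and endothelial cells reached at most 0.142 FPKM, apart from CD68, itself a lysosomal membrane protein, at 0.786 to 1.21 FPKM in Vector and 0.187 to 0.713 FPKM in LOC_OE. The part of these markers in the results was not tested. In bulk RNA, fewer cells that use a gene and less of its RNA per cell cannot be told apart.

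The E-box cores near the members' starts are shown because they are the sequence through which TFEB and TFE3 act. RefSeq windows on GRCh38.p14, from 250 bases before to 50 bases after a gene start, were at hand for 29 of the 39 members. The core CACGTG, which reads the same on both strands, lay in the window of 7 of these 29 (24.1%). It lay in 12.7% of the windows of all tested genes and in 8.77% of all windows. The longer form GTCACGTG, searched on both strands and always overlapping the core, lay in 6 member windows (20.7%), against 5.3% of tested genes. One site per gene is printed with 10 bases on each side, 5′ to 3′ on the strand of the gene, with the core in capitals. The sites lie, in the order printed, at chr16:67481201-67481226 (minus strand), chr20:45891283-45891308 (plus), chr11:1763959-1763984 (minus), chr17:80101540-80101565 (plus), chr13:113297201-113297226 (plus), chr19:7522573-7522598 (plus) and chr6:31862932-31862957 (minus).
ATP6V0D1: cccttatggtCACGTGaggcgcttgc
CTSA: ggaagactgtCACGTGgcgccggagt
CTSD: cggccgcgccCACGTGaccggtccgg
GAA: tcccgccggtCACGTGacccgcctct
LAMP1: cccgcgggatCACGTGacgcccgggc
MCOLN1: cagaggcggtCACGTGaggggctctg
NEU1: gctgcgtgatCACGTGggaggagatg
The window of LAMP1 held 6 such cores. A match describes letters only and is not evidence of binding.

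The lysosome and autophagy genes did not move as a block. With limma and Benjamini-Hochberg adjustment over all tested genes, 3 members rose in LOC_OE (CTSL, CTSC and GUSB), 5 fell (SQSTM1, NEU1, LIPA, ATP6V1B2 and ULK1) and 31 did not pass an adjusted p of 0.05. On GRCh38 the genes that passed lie as follows, CTSL at chr9:87725519-87731393 (plus strand), CTSC at chr11:88293592-88337787 (minus strand), GUSB at chr7:65960684-65982314 (minus strand), SQSTM1 at chr5:179806398-179838078 (plus strand), NEU1 at chr6:31857659-31862906 (minus strand), LIPA at chr10:89213569-89414557 (minus strand), ATP6V1B2 at chr8:20197367-20226819 (plus strand) and ULK1 at chr12:131894651-131923167 (plus strand). The 8 that passed were 20.5% of the members, and 20.4% of all tested genes passed. By direction, 10.7% of all tested genes rose and 9.74% fell. With the added condition of a fold change of at least 1.5 on the log2(FPKM + 1) scale, CTSL and CTSC rose and SQSTM1 fell. Of all tested genes, 4.63% rose and 5.58% fell under that condition. GUSB missed it on that scale, with a log2 fold change of 0.577, although its ratio of mean FPKM was 1.527. With a pseudocount of 0.1 in place of 1, 3 members were higher by 1.5-fold. The median log2 fold change of the members, LOC_OE over Vector on the log2(FPKM + 1) scale, was -0.05, and that of all tested genes was 0.02. In 15 members the value was above 0 and in 24 it was below 0. Scaling the libraries to the same sum of FPKM moved the median of all tested genes to -0.18 and that of the members to -0.28, so changes near 0 have no firm sign here.

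**Figure D1:**
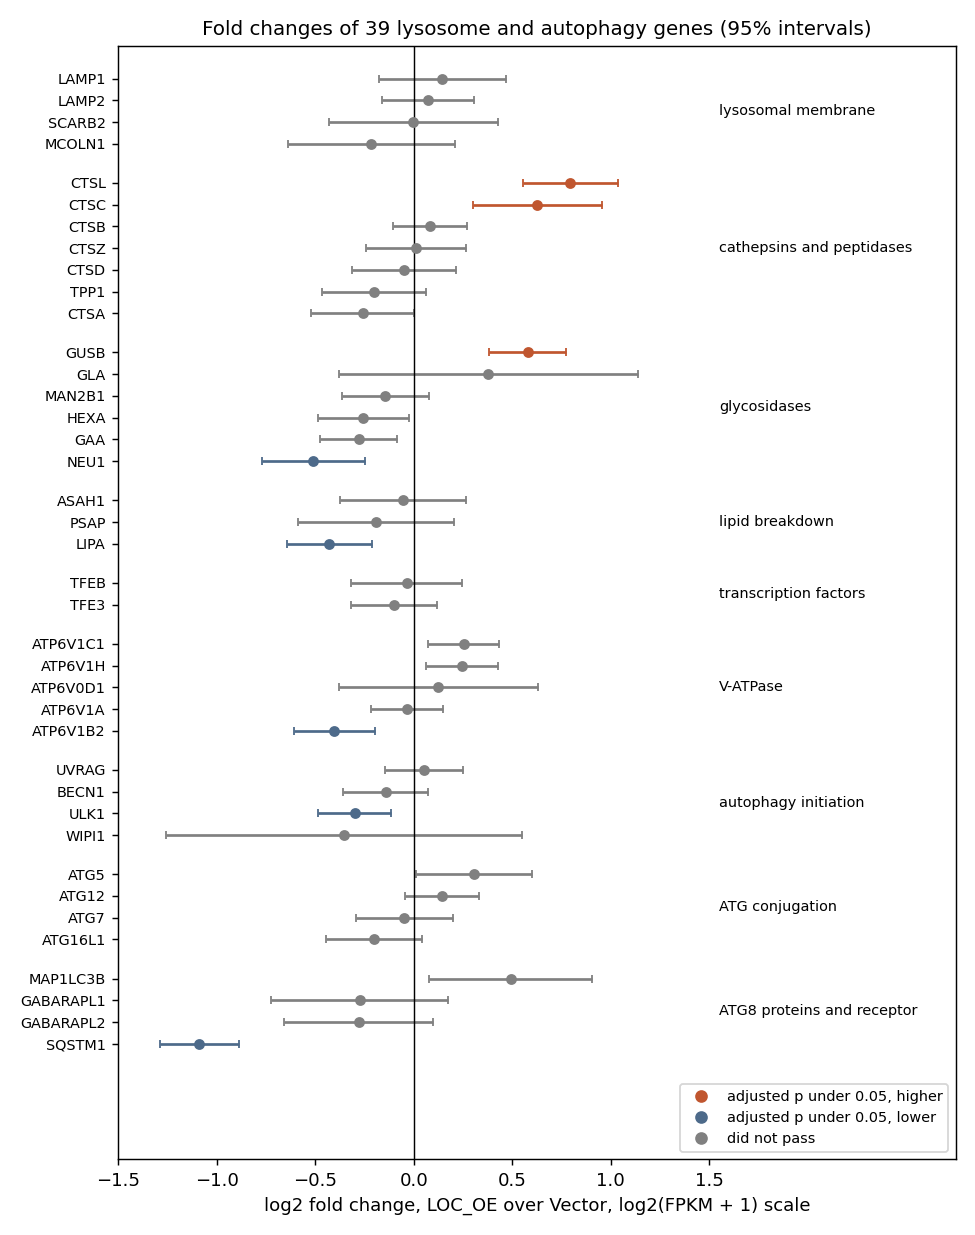
Each point is the log2 fold change (LOC_OE over Vector, log2(FPKM + 1) scale) of 1 of the 39 members with its 95% confidence interval from limma, grouped by role. SQSTM1 lies farthest left at -1.09 and CTSL farthest right at 0.79, while most intervals cross 0.

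The largest difference was that of SQSTM1, the receptor also called p62 that binds ubiquitin-tagged cargo and LC3. Its level was 100.9, 95.8 and 91.3 FPKM in the Vector libraries and 45.4, 46.1 and 42.4 FPKM in the LOC_OE libraries. The groups were far apart, and each was tight. The means were 96.0 ± 4.81 and 44.6 ± 1.95 FPKM (SD, n = 3 each), a ratio of 0.465, with a log2 fold change of -1.09 ± 0.0827 (SE) and an adjusted p of 0.00292 in limma. SQSTM1 was the member with the second highest level per length in Vector, behind PSAP, and ranked 5 of 39 in LOC_OE. It passed in all 6 fits that left out 1 library, with adjusted p of at most 0.034, and its log2 fold change was -1.10 without LOC_OE replicate 1. Of its exon length (ENSG00000161011), 22.0% is shared with MGAT4B and MRNIP on the opposite strand. Reads of those genes could count towards SQSTM1, and their own log2 fold changes were -0.21 (adjusted p = 0.21) and -0.14 (adjusted p = 0.416), neither of which passed.

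The other proteins of that step are the LC3 and GABARAP proteins, which are anchored in the autophagosome membrane. MAP1LC3B, the common LC3 protein, was at 50.6, 43.5 and 44.9 FPKM in Vector and at 50.1, 75.6 and 73.6 FPKM in LOC_OE. LOC_OE replicate 1 lay among the Vector libraries and the other 2 lay above them. With all libraries its log2 fold change of 0.49 had an adjusted p of 0.0906, and without LOC_OE replicate 1 it was 0.68 with an adjusted p of 0.00226. Reads of the near copy MAP1LC3B2, with a mean of 4.71 FPKM, may be split with it. GABARAPL1 lay between 4.54 and 8.31 FPKM and GABARAPL2 between 18.4 and 30.2 FPKM over all libraries. Their log2 fold changes were -0.28 each, with adjusted p of 0.332 and 0.25, and in both LOC_OE replicate 1 was the lowest library.

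**Figure D2:**
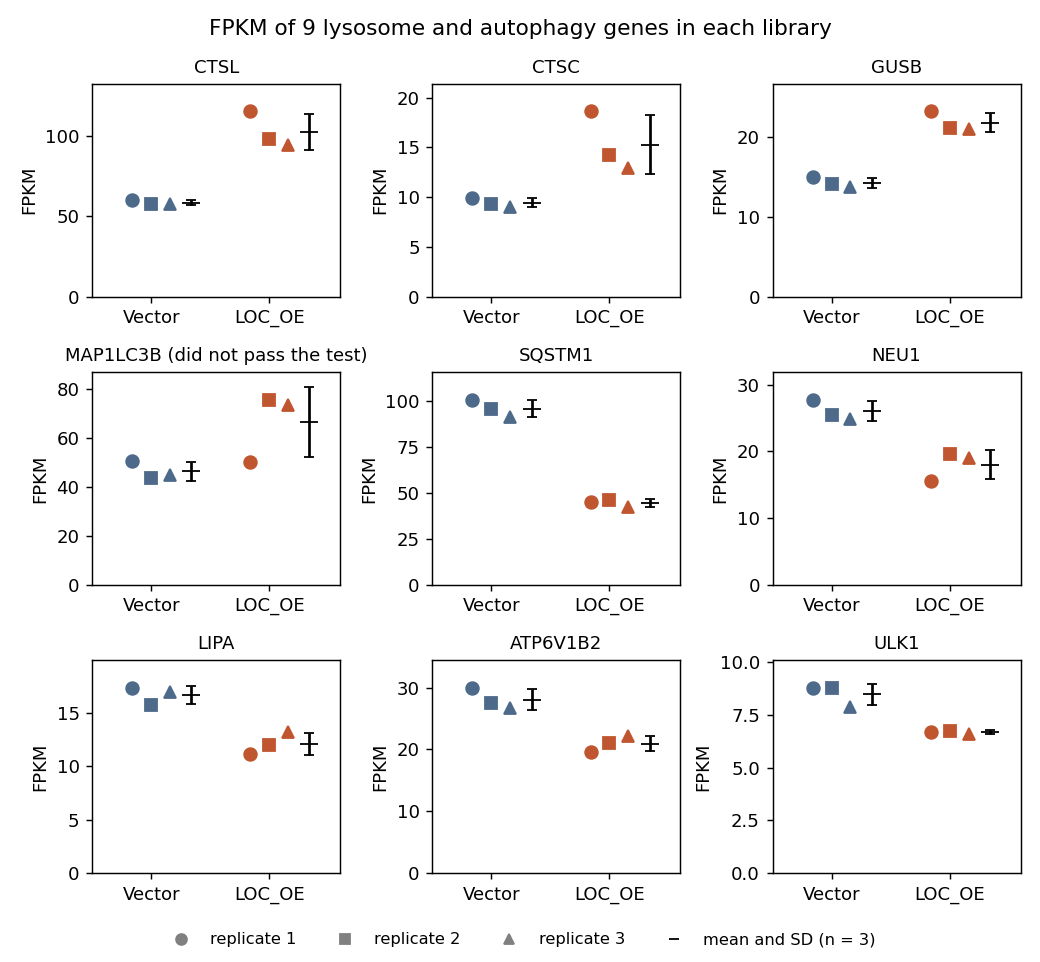
FPKM in each library for the 8 members that passed and for MAP1LC3B, with 1 point per library, the mean and SD of the 3 libraries beside them, and axes from 0. In SQSTM1 the LOC_OE points, at most 46.1 FPKM, lie far below the Vector points, at least 91.3 FPKM, in CTSL the order is the opposite, and in MAP1LC3B LOC_OE replicate 1 lies among the Vector points.

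Among the 7 cathepsins and peptidases, which cut proteins in the lysosome, 2 rose and none fell by the test. Of all tested genes, 10.7% rose and 9.74% fell. From the wider gene list described below, 6 more cathepsins and peptidases were tested, and 0 passed. CTSL, a cysteine cathepsin, was at 60.1, 57.9 and 57.7 FPKM in Vector and at 115, 98.3 and 94.3 FPKM in LOC_OE. Every LOC_OE library lay above every Vector library. Its log2 fold change was 0.79 ± 0.10 (SE; adjusted p = 0.00755), and it passed in 5 of 6 fits without 1 library, the exception being the fit without Vector replicate 2 (adjusted p = 0.0531). CTSL took the second rank among the members in LOC_OE. CTSC, which trims dipeptides from protein ends and activates serine proteases, was at 9.94, 9.31 and 9.05 FPKM in Vector and at 18.6, 14.2 and 13.0 FPKM in LOC_OE. The groups did not overlap, and LOC_OE replicate 1 was the highest. Its log2 fold change was 0.63 ± 0.14 (SE; adjusted p = 0.0259) with all libraries and 0.48 (adjusted p = 0.00407) without LOC_OE replicate 1. It kept its call in 2 of 6 fits without 1 library, and lost it with no filter on low FPKM (adjusted p = 0.0523) and with the trend over GC content removed (adjusted p = 0.055).

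CTSD, an aspartic protease, was at 20.3, 18.9 and 18.7 FPKM in Vector and at 21.2, 18.8 and 16.2 FPKM in LOC_OE. The groups overlapped, with a log2 fold change of -0.05 and a 95% interval from -0.32 to 0.22 (adjusted p = 0.78), and 52.7% of its exon bases are shared with other genes. CTSA, CTSB, CTSZ and TPP1 had log2 fold changes of -0.26, 0.08, 0.01 and -0.20, none past the test. Their levels ranged from 17.5 FPKM, for CTSA, to 57.3 FPKM, for CTSZ. Without LOC_OE replicate 1, CTSA had a log2 fold change of -0.35 with an adjusted p of 0.0151.

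Of the 6 glycosidases, which take sugars off glycans, glycogen and glycolipids, GUSB rose and NEU1 fell. GUSB, the beta-glucuronidase, was at 14.9, 14.0 and 13.7 FPKM in Vector and at 23.1, 21.1 and 21.0 FPKM in LOC_OE. All 3 LOC_OE libraries were higher, by a log2 fold change of 0.58 ± 0.081 (SE; adjusted p = 0.0088). It passed in 4 of 6 fits without 1 library, and without LOC_OE replicate 1 the log2 fold change was 0.53 (adjusted p = 0.00185). The annotation names 12 pseudogene copies of GUSB that could take part of its reads, the highest, GUSBP9, at a mean of 3.17 FPKM. NEU1, the sialidase, was at 27.8, 25.5 and 24.9 FPKM in Vector and at 15.5, 19.6 and 19.0 FPKM in LOC_OE. The LOC_OE libraries were all lower, replicate 1 the most. Its log2 fold change was -0.51 ± 0.11 (SE; adjusted p = 0.0244), and -0.41 (adjusted p = 0.00521) without LOC_OE replicate 1. NEU1 passed in 3 of 6 fits without 1 library. Genes on its part of chromosome 6 had a median log2 fold change of -0.09, and after centring on chromosome parts NEU1 was at -0.43 with an adjusted p of 0.0564.

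The 4 other glycosidases did not pass. GLA, which removes galactose from glycolipids, was at 10.8, 10.1 and 10.9 FPKM in Vector and at 24.7, 9.57 and 11.6 FPKM in LOC_OE. The high value came from LOC_OE replicate 1 alone, and the log2 fold change of 0.38 (adjusted p = 0.43) became -0.01 without it. GAA, which degrades glycogen, had all 3 LOC_OE values below the Vector values, with a log2 fold change of -0.28 (adjusted p = 0.0568), and HEXA likewise, with -0.26 (adjusted p = 0.109). MAN2B1 had a log2 fold change of -0.14. Without LOC_OE replicate 1, GAA and MAN2B1 had adjusted p of 0.0151 and 0.0391.

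Of the 3 members that handle lipids, LIPA fell. LIPA, the acid lipase that releases cholesterol and fatty acids from their esters, was at 17.4, 15.8 and 16.9 FPKM in Vector and at 11.2, 12.0 and 13.3 FPKM in LOC_OE. The groups did not overlap. The log2 fold change was -0.43 ± 0.090 (SE; adjusted p = 0.0237), or -0.38 (adjusted p = 0.00946) without LOC_OE replicate 1, and 2 of 6 fits without 1 library kept the call. PSAP, the precursor of the saposins that present lipids to hydrolases, was the highest member in both groups, at 145 to 162 FPKM in Vector and 105, 157 and 150.0 FPKM in LOC_OE, with a log2 fold change of -0.19 (adjusted p = 0.448). ASAH1, a ceramidase, had a log2 fold change of -0.06 and levels from 4.06 to 5.83 FPKM.

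Of the 5 V-ATPase subunits, 1 fell and 4 did not pass, where 9.74% of all tested genes fell. ATP6V1B2, a subunit of the part that splits ATP, was at 29.9, 27.4 and 26.6 FPKM in Vector and at 19.7, 21.0 and 22.1 FPKM in LOC_OE. It fell by 0.40 ± 0.086 (SE) on the log2 scale with an adjusted p of 0.0243 in limma, and by 0.36 (adjusted p = 0.00913) without LOC_OE replicate 1. It passed in 2 of 6 fits without 1 library. ATP6V1C1 and ATP6V1H, of the same cytosolic part, were higher in every LOC_OE library, at log2 fold changes of 0.25 (adjusted p = 0.0593) and 0.24 (adjusted p = 0.0653). Neither passed with all libraries, and both passed without LOC_OE replicate 1 (adjusted p = 0.0199 and 0.0246). With the libraries scaled to the same sum of FPKM, all 5 subunits were below 0, ATP6V1C1 at -2.36e-04 and ATP6V1H at -0.00291. ATP6V1A had a log2 fold change of -0.03, and ATP6V0D1, of the membrane part, 0.12, with LOC_OE replicate 1 at 24.6 FPKM and all other libraries between 14.2 and 18.2 FPKM.

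At the start of autophagy, ULK1, the kinase that receives signals of nutrient state, was at 8.77, 8.76 and 7.89 FPKM in Vector and at 6.71, 6.75 and 6.59 FPKM in LOC_OE. The LOC_OE libraries were all lower and close together. The log2 fold change was -0.30 ± 0.077 (SE; adjusted p = 0.0395), and without LOC_OE replicate 1 it was also -0.30 (adjusted p = 0.0171). This was the only one of 6 fits without 1 library in which ULK1 passed, and it missed the threshold with the GC trend removed (log2 fold change of -0.19, adjusted p = 0.163), with no filter (0.0533) and with no variance trend (0.0502). BECN1, the scaffold of the lipid kinase complex, was at 10.5, 9.18 and 9.67 FPKM in Vector and at 8.01, 9.11 and 9.14 FPKM in LOC_OE. These groups did not overlap, yet the log2 fold change of -0.14 did not pass (adjusted p = 0.297). WIPI1, which binds the lipid made by that complex, was at 2.68, 8.74 and 8.88 FPKM in LOC_OE against 7.81 to 8.25 FPKM in Vector. LOC_OE replicate 1 alone was low, and the log2 fold change was -0.36 (adjusted p = 0.536), or 0.12 without that library. UVRAG, a partner of BECN1, had a log2 fold change of 0.05.

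None of the 4 genes of the ATG conjugation step passed with all libraries. ATG5 and ATG12, which are joined to each other, were higher in every LOC_OE library, at log2 fold changes of 0.31 (adjusted p = 0.124) and 0.14 (adjusted p = 0.233). ATG7, the activating enzyme, had a log2 fold change of -0.05 and levels from 2.93 to 3.76 FPKM. ATG16L1, which places the complex on the membrane, had -0.20 (adjusted p = 0.198), and -0.30 without LOC_OE replicate 1 (adjusted p = 0.0137).

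The lysosomal membrane proteins and the transcription factors did not pass either. LAMP1 was at 40.8, 37.1 and 37.5 FPKM in Vector and at 52.0, 39.1 and 38.0 FPKM in LOC_OE, a log2 fold change of 0.14 with a 95% interval from -0.18 to 0.47 (adjusted p = 0.48). MCOLN1, the calcium channel of the lysosome, was at 5.42, 5.20 and 5.72 FPKM in Vector and at 6.28, 4.16 and 3.54 FPKM in LOC_OE. Replicate 1 was above and the other 2 LOC_OE libraries were below all Vector libraries, so the log2 fold change was -0.22 (adjusted p = 0.421) with it and -0.41 (adjusted p = 0.0134) without it. LAMP2 and SCARB2, the receptor that carries glucocerebrosidase, had log2 fold changes of 0.07 and -0.0031. TFEB was the lowest member, at 1.302, 1.19 and 1.25 FPKM in Vector and at 1.49, 1.08 and 1.02 FPKM in LOC_OE (log2 fold change of -0.04, adjusted p = 0.849). TFE3 was at 25.4, 26.4 and 24.1 FPKM in Vector and at 25.7, 23.2 and 21.8 FPKM in LOC_OE (log2 fold change of -0.10, adjusted p = 0.463). In both, the groups overlapped.

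Members with an E-box core in the window had a median log2 fold change of -0.22 (n = 7, from -0.51 for NEU1 to 0.14 for LAMP1), and members without one had -0.08 (n = 22). Of the former, 2 were above 0 and 5 below, and of the latter, 8 were above and 14 below. None of the 3 members that rose had a core in its window. NEU1 was the only one that fell and had it, ATP6V1B2 being without a window. The NEU1 window lacked the longer form GTCACGTG.

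LOC_OE replicate 1 was the highest or lowest of the 6 libraries for 26 of 39 members (66.7%), and for 61.4% of all tested genes. It differed by over 0.5 on the log2(FPKM + 1) scale from the mean of the other LOC_OE libraries in 9 members (23.1%, against 25.1% of all tested genes). In 3 of these it was higher, GLA by 1.16, ATP6V0D1 by 0.708 and MCOLN1 by 0.589. In 6 it was lower, WIPI1 with a difference of -1.41, GABARAPL1 -0.629, SCARB2 -0.617, MAP1LC3B -0.566, PSAP -0.543 and GABARAPL2 -0.535. What set this library apart was not tested.

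**Figure D3:**
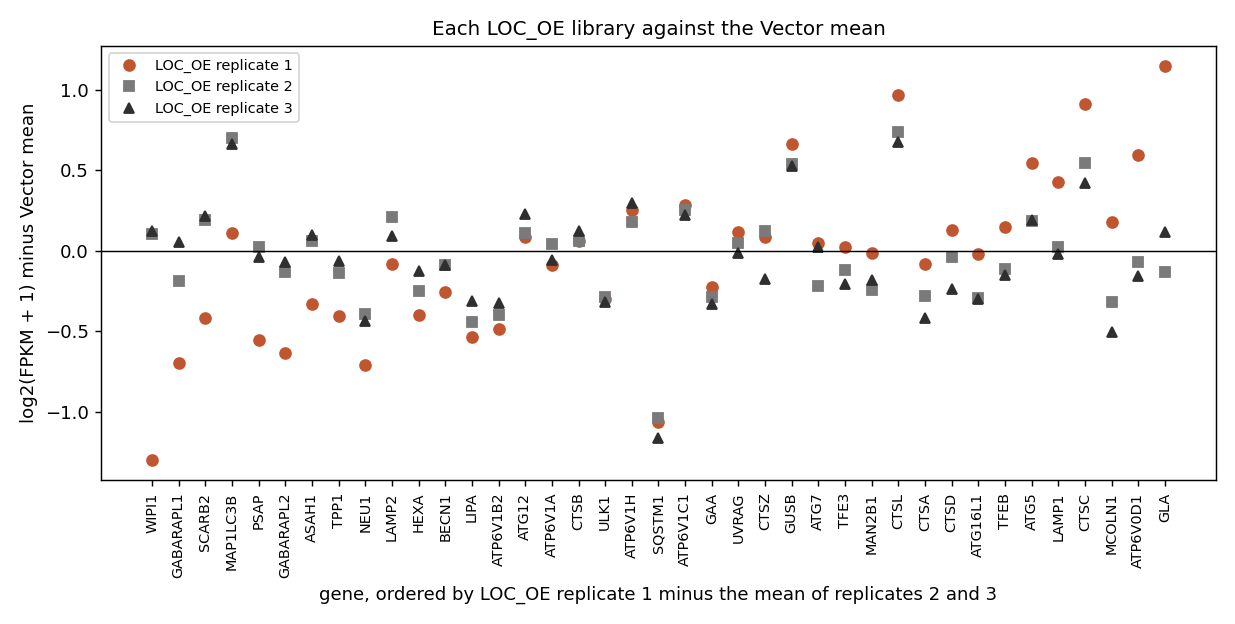
Difference of each LOC_OE library from the mean of the Vector libraries on the log2(FPKM + 1) scale, for each member. LOC_OE replicate 1 departs from replicates 2 and 3 in WIPI1 and GLA, while the 3 points of SQSTM1 and of ULK1 lie together.

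The calls depended on which library was left out. Without LOC_OE replicate 1, 16 members passed, 6 higher and 10 lower, and 35.5% of all tested genes did. These were the 8 that passed with all libraries and 8 more (ATG16L1, ATP6V1C1, ATP6V1H, CTSA, GAA, MAN2B1, MAP1LC3B and MCOLN1). Without Vector replicate 2, SQSTM1 alone passed, and 2.31% of all tested genes did. Counted by separation, 7 members had every LOC_OE library above every Vector library and 10 had every one below, where 24.4% and 20.9% of all tested genes did. Of these 17 members, 9 did not pass the test. In a group of 3 against 3, the smallest two-sided p of an exact permutation test is 0.1, so none was run on single members.

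**Figure D4:**
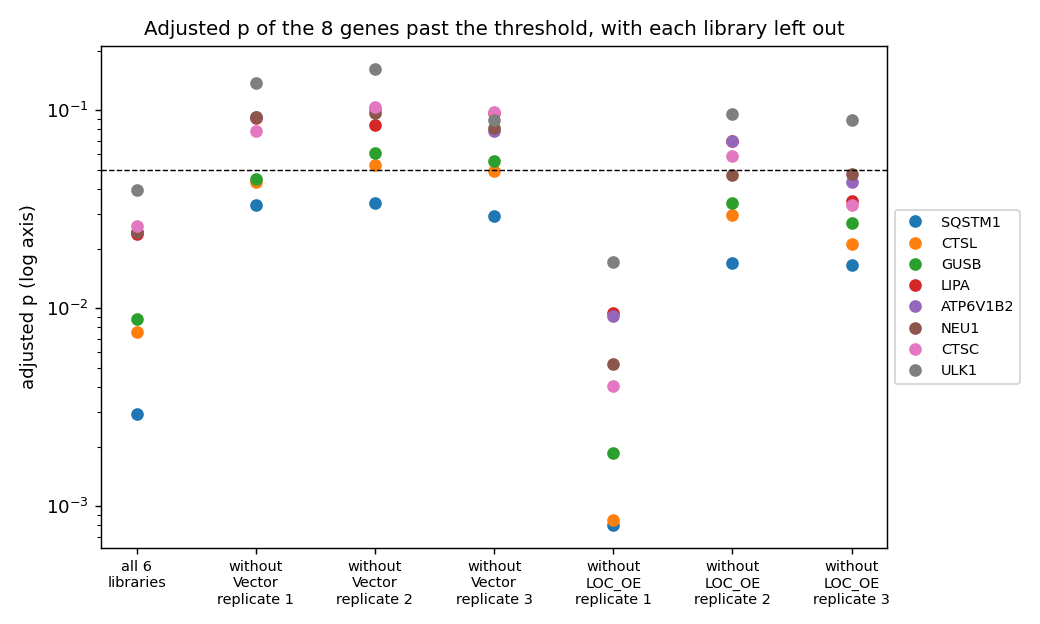
Adjusted p from limma for the members that passed with all libraries, in the fit of all 6 libraries and in each fit that left out 1, on a log axis with the threshold of 0.05 drawn as a line. SQSTM1 stays under the line in all 6 such fits, CTSL in 5, and ULK1 in 1.

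Of 144 further genes listed for the same pathways, 133 were tested, and 8 rose and 16 fell (18.0% passed), with a median log2 fold change of -0.10. Among all tested genes 20.4% passed, 10.7% higher and 9.74% lower. The MITF gene, for a factor of the same family as TFEB and TFE3, was at 2.74, 2.33 and 2.49 FPKM in Vector and at 0.696, 0.842 and 0.881 FPKM in LOC_OE. All LOC_OE libraries were lower, by a log2 fold change of -0.96 (adjusted p = 0.00528), and the gene passed in all 6 fits without 1 library. The pseudocount understates changes at such low levels. The ratio of mean FPKM was 0.320 for MITF and 0.310 for VAMP8, named below. SMPD1, the acid sphingomyelinase, fell by 0.74 on the log2 scale (adjusted p = 0.00459) and likewise passed in all 6. The cargo receptor OPTN, of the same class as SQSTM1, fell by 0.62 (adjusted p = 0.0354) and passed in 2 of 6. Lower levels were also called for VAMP8 (-0.80), a SNARE of vesicle fusion, ATG2A (-0.70), a lipid transfer protein of the growing autophagosome, ZFYVE1 (-0.68), VPS11 (-0.62), a tethering subunit, and DRAM1 (-0.58). Higher levels were called for LYPLA1 (0.75), a thioesterase listed under lipid breakdown whose place in the lysosome was not checked. AGA (0.62), an amidase of glycoprotein breakdown, TMEM192 (0.54), WDR45B (0.48) and LAMTOR3 (0.37), which helps hold mTORC1 at the lysosome, were also called higher. So were RAB7A (0.34), the GTPase of late endosomes, GALNS (0.34), a sulfatase, and CD63 (0.30), a membrane protein. Of these 16 genes, MITF, SMPD1 and LYPLA1 passed in all 6 fits without 1 library, while ZFYVE1, WDR45B, LAMTOR3, RAB7A, GALNS and CD63 passed in 1 and the rest in 2 to 4. VAMP8 had few reads, 27 to 35 per Vector library and 5 to 10 per LOC_OE library. Genes on the part of chromosome 4 that holds AGA, TMEM192 and LAMTOR3 had a median log2 fold change of 0.21. On the part of chromosome 12 that holds CD63 it was 0.20. The other named genes lay on parts with medians from -0.05 to 0.10. The share of these shifts in the calls was not tested.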

How the data were processed

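RNA of 6 RKO samples was prepared by the authors with a NEBNext Ultra kit and sequenced as paired ends on a NovaSeq, and FPKM values were deposited by them in 1 table. The submitters' processing notes name HISAT2 2.0.4 and StringTie 1.3.0. The annotation, the counting and the strand setting are not given in the sources used here, so overlapping genes and near copies can share reads. All 58735 gene identifiers matched GENCODE 29 on GRCh38. No library had a read on 27612 of them. The table held 0 unused value columns. FPKM times merged exon length gave whole reads (within 0.05) for 100% of values. Such values are not the usual form of StringTie's FPKM, so the tool that made this table is uncertain, and the recovered reads rest on the values alone. The library size that the authors had divided by was the geometric mean of all read totals multiplied by each median-of-ratios size factor, which put the libraries on 1 scale.

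Groups came from the sample labels. log2(FPKM + 1) was fitted with limma 3.58.1 in R 4.3.3 using a variance trend. A gene was tested where 3 or more libraries reached 0.5 FPKM. The pseudocount of 1 understates changes of low genes. P-values were adjusted by Benjamini-Hochberg over 16061 genes, and "passed", "rose" and "fell" mean an adjusted p under 0.05. The members had 85 to 14494 reads per library, and read counts cover counting error only. Values in every library are given for each member that passed and for LAMP1, CTSD, MCOLN1, TFEB, TFE3, SQSTM1, MAP1LC3B, ULK1 and BECN1, and for a few others, such as GLA, WIPI1 and PSAP, picked after their values were seen. Of the further pathway genes, 8 with the largest increase and 8 with the largest decrease are named, among those that passed and did not overlap. MAP1LC3B2 is named besides as a near copy, and MAP1LC3C was added after its values were seen. The members and lists were chosen with earlier results of these data known. Alternatives were another pseudocount, other filters, scalings and models, voom on the recovered reads, centring on chromosome parts, and leaving out each library; removal of the GC trend was added after seeing the data.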

Additional observations from a re-analysis of the deposited data

How the results depend on the processing

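Leaving out each library in turn gave 0 to 6 members higher and 1 to 10 lower, and 0 to 3 higher by 1.5-fold. It gave 1 to 15 further pathway genes higher and 2 to 35 lower, and member medians from -0.0923 to -0.0207. The share of all tested genes that passed ran from 2.31% (without Vector replicate 2) to 35.5% (without LOC_OE replicate 1). SQSTM1 passed in each of these fits, and the other 7 members called with all libraries kept their direction. SQSTM1, CTSL and GUSB also passed under all 13 alternatives that used every library. Some of these could not change their call. An unadjusted p is a looser threshold on the same fit. Median-of-ratios scaling repeated the main fit, with 3277 genes passed in both, as the FPKM were already on that scale.

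With no filter, 1 member was higher by 1.5-fold, and 5 further genes were higher and 10 lower. Scaling to the same sum of FPKM gave 12 members lower, 0 higher and 4 lower by 1.5-fold, 1 further gene higher and 42 lower, and a median of -0.279. Quantile normalization gave 9 members lower, 0 higher and 3 lower by 1.5-fold, and 30 further genes lower. The median was then -0.184 for the members and 0.0151 for all tested genes. Array weights gave 9 members higher and 11 lower, and 24 and 45 further genes. An unadjusted p gave 7 members higher, and 19 further genes higher and 30 lower. The main fit did not pair equal replicate numbers. Deviations of same-numbered libraries correlated at 0.111, -0.0338 and 0.116, and those of unlike numbers at -0.128 to 0.0581. Whether equal numbers mark pairs was not tested. With a replicate block 3 members were higher and 1 lower, with 3 and 8 further genes, and NEU1, LIPA, ATP6V1B2 and ULK1 missed the threshold. Of all genes tested, 7.33% passed with no filter, 24.0% with the same sum, 21.7% with quantile normalization, 50.3% with array weights, 36.5% by unadjusted p and 12.9% with the block. The cause of these shifts was not tested.

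Members whose log2 fold change turned sign had not passed. With the same sum these were LAMP1 (-0.111), LAMP2 (-0.174), CTSB (-0.169), CTSZ (-0.245), ATP6V0D1 (-0.123), ATP6V1C1 (-2.36e-04), ATP6V1H (-0.00291), UVRAG (-0.145) and ATG12 (-0.0881). With quantile normalization these were LAMP1 (-0.119), LAMP2 (-0.0629), CTSB (-0.0973), CTSZ (-0.251), TFEB (0.0845), ATP6V0D1 (-0.0296) and ATG7 (0.0167). Array weights turned SCARB2 (0.196), GLA (-0.0683), PSAP (0.00643), ASAH1 (0.0657), ATP6V0D1 (-0.0449), ATP6V1A (0.0339) and WIPI1 (0.080). Centring on chromosome parts turned CTSB (-0.0181), CTSD (0.00276) and TFEB (0.0465), and removing the GC trend turned LAMP2 (-0.0233), CTSD (0.0559), TFEB (0.0607) and UVRAG (-0.00761). Leaving out 1 library turned the sign in at least 1 fit for SCARB2 (-0.112 to 0.203), CTSD (-0.138 to 0.0443), CTSZ (-0.0436 to 0.105), GLA (-0.00708 to 0.633), ASAH1 (-0.134 to 0.082), TFEB (-0.13 to 0.0202), ATP6V0D1 (-0.111 to 0.264), WIPI1 (-0.596 to 0.116) and ATG7 (-0.0981 to 0.0351).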
